A study of Homo sapiens with 10 samples.

Results

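The genes described here are the members of Polycomb repressive complex 2 (PRC2) and the pair of proteins that copy DNA methylation at replication, followed across RWPE-1 prostate epithelial cells that carried ETV1, ERG or neither. The 9 members were EZH2, EZH1, SUZ12, EED, JARID2, RBBP4, RBBP7, DNMT1 and UHRF1, and every probe set that the platform annotation assigned to exactly one gene, that gene being a member, was taken. All 9 genes were on the array, of 19775 genes with such a probe set, and they had 23 probe sets out of 41091 probe sets that named 1 gene and 54675 in all. RWPE-1 is an immortalised human prostate epithelial line, which the labels call non-tumorigenic. Cells were transduced with MSCV retrovirus, a murine stem cell virus vector, and stable clones were selected. Total RNA of cells in normal growth was hybridised to Affymetrix HG-U133 Plus 2.0 arrays. There were 4 arrays of cells with BirA and ETV1 (A to D), 3 arrays of cells labelled as carrying BirA and ERG (A to C), and 3 control arrays of cells with BirA alone (A to C). BirA, a bacterial biotin ligase, was therefore present in all 3 groups. The design text speaks of 3 biological replicates, and no source ties an array to a clone or culture, so each p-value reflects only how far these arrays scatter, which may be partly technical. ETV1 and ERG are ETS transcription factors that chromosomal rearrangements switch on in prostate cancer, and the design sets cells with each factor against the BirA control.

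PRC2 places methyl groups on lysine 27 of histone H3, a mark of silent genes. EZH2 is its catalytic subunit in dividing cells and EZH1 the alternative catalytic subunit, more prominent in cells that divide little. SUZ12 and EED hold the complex together, EED also binding the finished mark, RBBP4 and RBBP7 are histone-binding subunits that PRC2 shares with several other chromatin complexes, and JARID2 is an accessory subunit that helps bring PRC2 to its sites. DNMT1 methylates the new DNA strand behind the replication fork, and UHRF1 recognises the half-methylated DNA there and recruits DNMT1. EZH2, DNMT1 and UHRF1 are commonly counted among genes driven by E2F factors at the start of S phase, and EZH2 is known to be raised in aggressive prostate cancer.

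The promoters of 3 members are shown because the results turn on them: UHRF1 had the lowest ETV1 values relative to control, RBBP4 had probe sets that disagreed, and EZH2 is the catalytic subunit. RefSeq (GRCh38.p14) gave 15 transcription starts for all 9 members, and each sequence below is the 250 bases before a start, on the gene's strand. The UHRF1 starts shown follow chr19:4909251-4909500 and chr19:4909894-4910143 on the plus strand. The RBBP4 start shown follows chr1:32650958-32651207 on the plus strand, and the EZH2 start shown lies beside chr7:148884292-148884541 on the minus strand. Capitals mark the E2F words TTTCCCGC, TTTGGCGC, TTTGCCGC and TTTCGCGC, and the word CCAAT that NF-Y binds, each searched on both strands, so that some appear as their reverse complement. Of the starts not shown, EZH2 start 2 and UHRF1 start 3 held no such word, and RBBP4 start 2 held CCAAT once.
UHRF1 start 1: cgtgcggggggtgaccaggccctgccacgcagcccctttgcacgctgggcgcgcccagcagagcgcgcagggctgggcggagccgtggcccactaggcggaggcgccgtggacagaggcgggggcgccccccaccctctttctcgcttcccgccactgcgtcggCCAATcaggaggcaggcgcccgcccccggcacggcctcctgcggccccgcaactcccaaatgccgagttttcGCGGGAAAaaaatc
UHRF1 start 2: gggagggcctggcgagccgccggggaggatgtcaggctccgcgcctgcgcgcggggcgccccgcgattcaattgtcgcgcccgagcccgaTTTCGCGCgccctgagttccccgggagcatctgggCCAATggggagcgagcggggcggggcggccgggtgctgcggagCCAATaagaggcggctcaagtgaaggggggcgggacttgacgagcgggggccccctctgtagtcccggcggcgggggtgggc
RBBP4 start 1: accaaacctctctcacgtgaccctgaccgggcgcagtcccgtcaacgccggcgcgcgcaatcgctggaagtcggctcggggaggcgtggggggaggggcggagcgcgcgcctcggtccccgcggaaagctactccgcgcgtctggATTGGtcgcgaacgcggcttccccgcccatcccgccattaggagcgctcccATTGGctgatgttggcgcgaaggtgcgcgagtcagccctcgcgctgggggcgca
EZH2 start 1: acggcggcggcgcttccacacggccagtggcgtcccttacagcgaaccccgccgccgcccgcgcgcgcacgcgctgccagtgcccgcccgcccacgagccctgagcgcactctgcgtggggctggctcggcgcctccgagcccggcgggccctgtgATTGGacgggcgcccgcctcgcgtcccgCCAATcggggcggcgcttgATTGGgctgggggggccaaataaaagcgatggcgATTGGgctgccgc
An E2F word stood before a start of 3 of the 9 members (EZH1, SUZ12 and UHRF1), against 3.40% of 27305 genes with a 250-base window. CCAAT stood before 7 of the 9, all but EZH1 and DNMT1, against 37.0% of genes, and the 4 copies in the EZH2 window were the most of any member window. The ETS core CCGGAA was in none of the member windows, against 17.2% of genes. The word TTTGAA or TTCGAA, the cell cycle homology region, was before SUZ12 alone among the members, against 17.2% of genes. The member windows held 11 to 48 CpG dinucleotides, with EED lowest, against a median of 11 over 35116 windows. These are matches of letters in short windows and not binding sites.

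The deposited values are linear intensities, 1 per probe set and array, with no counts behind them, so the number of arrays limits the precision. Arrays labelled ERG differed from the rest over the whole array. Their mean intensity was 489 to 513, against 344 to 367 on the ETV1 arrays and 338 to 400 on the control arrays, and their median intensity was 48.5 to 52.6, against 70.9 to 75.5 on ETV1 and 71.4 to 73.4 on control arrays. The 3′ to 5′ ratio of the actin (ACTB) control probe sets, which rises as RNA is shortened, was 2.75 to 3.07 on arrays labelled ERG, against 1.24 to 1.30 on ETV1 and 1.35 to 1.40 on control arrays. The same ratio for GAPDH did not share that rise, at 0.946 to 1.04, 0.994 to 1.05 and 0.893 to 0.931 in the same order. The 18S rRNA control probe set read 834 to 1103 on arrays labelled ERG, 276 to 874 on ETV1 and 79.4 to 159 on control arrays. The cre spike-in control probe set read 21757 to 24245 on arrays labelled ERG, 11578 to 12802 on ETV1 and 11334 to 12007 on control arrays. No alternative setting below scaled the arrays by this control. Spearman correlations over all probe sets were 0.766 to 0.811 between labelled-ERG and control arrays and 0.956 to 0.969 between ETV1 and control arrays. ETV1 probe sets 217053_x_at, 206501_x_at and 217061_s_at bore out their label: 217053_x_at read 1302, 1689, 1443 and 844 on ETV1 arrays A to D, against 72.5, 70.3 and 122 on control arrays. The dimmer ETV1 probe sets 221910_at and 221911_at overlapped between ETV1 and control arrays. The ERG probe sets did not settle theirs. The one ERG probe set that passed the filter, 222079_at, read 7.70 to 10.8 on arrays labelled ERG and 183 to 191 on control arrays, while 211626_x_at, too dim to test, read 25.7 to 49.9 on arrays labelled ERG and at most 20.2 elsewhere. Probe sets 213541_s_at and 241926_s_at, also too dim to test, overlapped between arrays labelled ERG and control arrays. These arrays are therefore called by their label, and the part of array brightness and RNA quality in their values was not tested. All 5 basal epithelial markers and all 4 general epithelial markers on the array lay above the array median on every array. The summed markers of luminal cells, fibroblasts, endothelium, leukocytes and neuroendocrine cells were each lowest on arrays labelled ERG, and their part in the results was not tested. The fibroblast sum, for example, was 1123 to 1176 on ETV1, 246 to 329 on labelled-ERG and 974 to 1247 on control arrays. Most of it came from COL1A1 and DCN, with control means of 679 and 284, while COL1A2, COL3A1 and LUM lay above the median on no array.

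By brightest probe set, the maintenance methylation pair fell most among the members in ETV1 cells. The histone-binding subunits came next, and EZH2, SUZ12 and EED of the PRC2 core fell less. RBBP4 probe sets 237333_at and 239071_at, with log2 fold changes of −0.45 and −0.22, fell about as much as that core or less. UHRF1 fell to about 0.322 times and DNMT1 to about 0.473 times the control mean, RBBP7 to 0.607 times, and EZH2 and SUZ12 to 0.722 and 0.723 times, while EED, EZH1 and JARID2 did not pass the test. Of the 18 member probe sets above the array median on at least 3 arrays, 0 were higher, 9 were lower and 9 did not pass limma's moderated test (Benjamini-Hochberg adjusted p under 0.05 over 25975 probe sets). Over all tested probe sets 10.4% were higher and 13.1% lower. RBBP4 alone supplied 6 of the 18. By 1 probe set a gene, 6 of the 9 members were lower, against 15.2% of 14116 genes. The 18 had a median log2 fold change of −0.44, against −0.03 over all tested probe sets. On 9 of the 18, all ETV1 arrays lay below all control arrays, against 18.8% of all tested probe sets. Log2 fold changes are of intensity plus 16, which understates the change of dim probe sets. In RNA of whole cultures, fewer dividing cells and less RNA per cell cannot be told apart.

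UHRF1 (225655_at) read 484, 508, 463 and 700 on ETV1 arrays A to D, 1564, 1738 and 1851 on arrays A to C labelled ERG, and 1897, 1763 and 1363 on control arrays A to C. Every ETV1 array was far below every control array, with ETV1 array D the highest of its group. The log2 fold change in ETV1 cells was −1.61 (SE 0.16, adjusted p = 4.0e-06). Of 14116 genes taken by their brightest probe set, 24 passed with a fold change as low as that of UHRF1 or lower, itself included, which is 0.17%. ETV1 array D was also the array with the least ETV1 signal in its group, 844 for 217053_x_at. Among ETV1 arrays A to C, array B had both the most ETV1 signal (1689) and the highest UHRF1 value (508). Whether UHRF1 follows the amount of ETV1 was not tested. Leaving out ETV1 array D gave −1.74 for UHRF1.

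DNMT1 (201697_s_at) read 1488, 1596, 1520 and 1610 on ETV1 arrays, 4299, 3764 and 5268 on arrays labelled ERG, and 3819, 3331 and 2710 on control arrays. The 4 ETV1 arrays were close together and all below the lowest control array. The log2 fold change in ETV1 cells was −1.06 (SE 0.15, adjusted p = 9.9e-05). UHRF1 and DNMT1 stayed lower and past the threshold in each of the 22 and 21 alternative settings in which they could be fitted.

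RBBP7 (201092_at) read 2256, 2594, 2407 and 2317 on ETV1 arrays, 5525, 5609 and 5886 on arrays labelled ERG, and 4419, 4110 and 3294 on control arrays. The 3 groups did not overlap, with ETV1 lowest and the arrays labelled ERG highest. The ETV1 log2 fold change was −0.71 (SE 0.13, adjusted p = 0.0012). RBBP4 had 6 tested probe sets, and 4 of them were lower in ETV1 cells. Its brightest, 210371_s_at, read 966, 1241, 1015 and 1185 on ETV1 arrays, 2051, 2240 and 2386 on arrays labelled ERG, and 1634 to 2128 on control arrays, a log2 fold change of −0.78 in ETV1 cells (adjusted p = 8.1e-04). Probe sets 217301_x_at and 225396_at gave −0.75 and −0.80 (adjusted p = 8.9e-04 and 0.0014), and these 3 passed in every alternative setting in which they could be fitted. The dimmest, 244872_at, gave −0.58 (adjusted p = 0.037) but its ETV1 and control arrays overlapped, and 8 of 21 alternatives left it short of the threshold. Probe sets 237333_at and 239071_at gave −0.45 and −0.22 and did not pass (adjusted p = 0.094 and 0.39).

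EZH2 (203358_s_at), the only EZH2 probe set, read 231, 225, 202 and 214 on ETV1 arrays, 786, 568 and 699 on arrays labelled ERG, and 341, 301 and 264 on control arrays. The groups did not overlap: ETV1 lay just below control, and the arrays labelled ERG well above both. The ETV1 log2 fold change was −0.44 (SE 0.14, adjusted p = 0.034). SUZ12 (212287_at) followed the same order, with 1241, 1252, 1152 and 1152 on ETV1 arrays, 2867, 2748 and 3590 on arrays labelled ERG, and 1866, 1768 and 1345 on control arrays, and its ETV1 log2 fold change was −0.45 (SE 0.15, adjusted p = 0.035). Both calls were marginal: EZH2 lost the threshold in 8 of 21 alternatives and SUZ12 in 9 of 22, and without control array A the values were −0.35 and −0.36, each with adjusted p = 0.15. Leaving out any 1 ETV1 array, or control array B, also left both short of the threshold.

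EED (209572_s_at) read 594, 638, 580 and 541 on ETV1 arrays, 2055, 2139 and 2205 on arrays labelled ERG, and 915, 787 and 569 on control arrays. Control array C lay among the ETV1 arrays, and the ETV1 log2 fold change of −0.33 did not pass (95% confidence interval −0.65 to −0.01, adjusted p = 0.13); without control array C it was −0.52 (adjusted p = 0.0097). EZH1 had 4 tested probe sets with ETV1 log2 fold changes of −0.04, −0.04, −0.07 and −0.15, none passing. The brightest, 32259_at, read 257, 283, 277 and 234 on ETV1 arrays, 403, 378 and 490 on arrays labelled ERG, and 305, 287 and 224 on control arrays, with a 95% confidence interval of −0.35 to 0.27 for the ETV1 log2 fold change. JARID2 was the one member with positive values: 203298_s_at read 477, 535, 474 and 373 on ETV1 arrays, 494, 499 and 615 on arrays labelled ERG, and 426, 385 and 300 on control arrays. ETV1 array D fell among the control arrays, and the ETV1 log2 fold changes of 0.32 and 0.30 for the JARID2 pair of tested probe sets did not pass (adjusted p = 0.16 and 0.23). With quantile normalisation 203298_s_at gave 0.39 (adjusted p = 0.030) and with equal mean intensity 0.40 (adjusted p = 0.033), and array weights also brought both past the threshold.

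**Figure D1:**
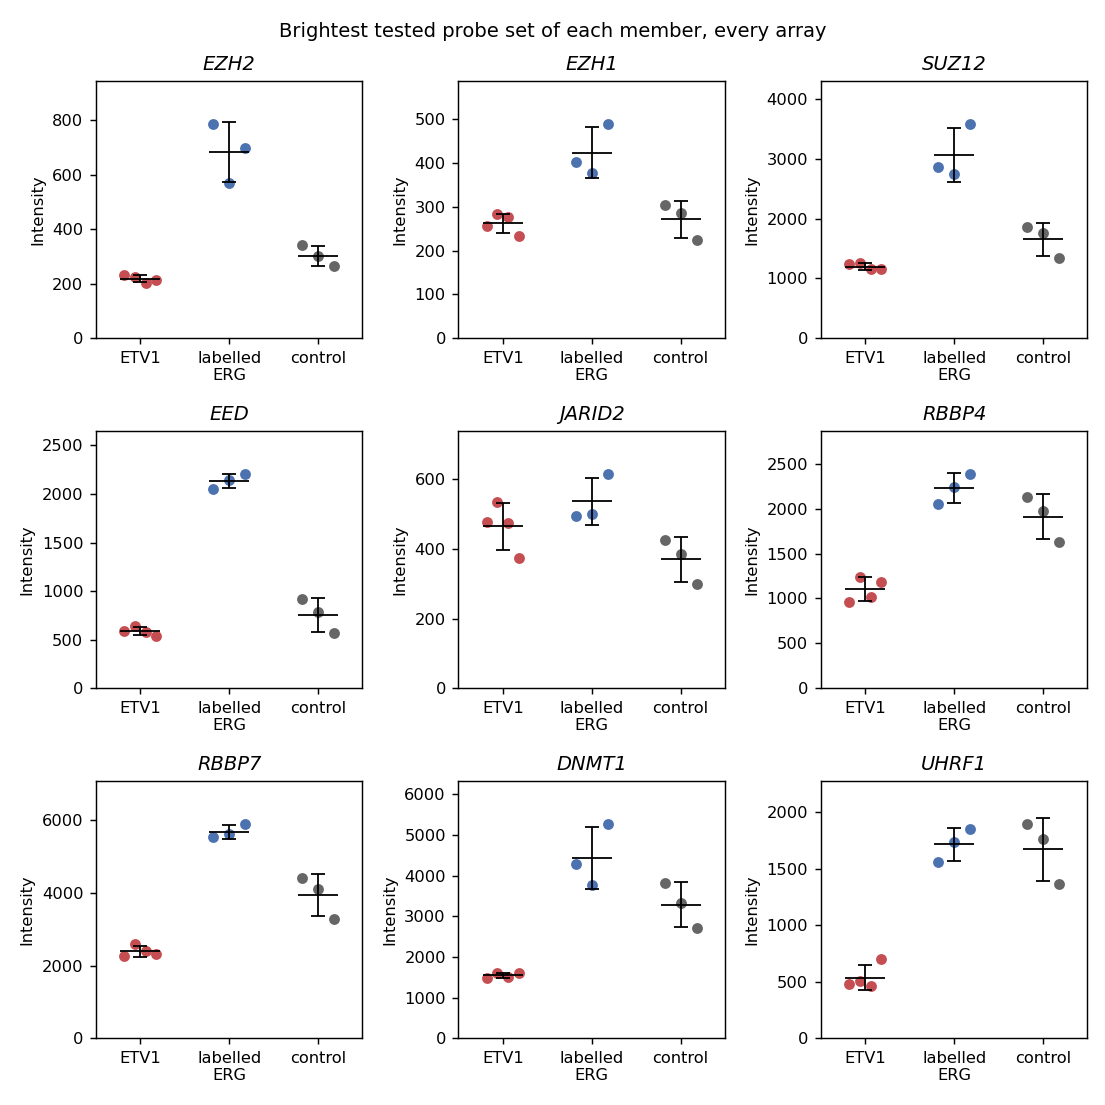
Intensity (vertical axis, linear, from 0) of the brightest tested probe set of each of the 9 members on every array; points are arrays, bars the mean ± SD of 4 ETV1, 3 labelled-ERG and 3 control arrays. UHRF1, DNMT1, RBBP4 and RBBP7 show 4 ETV1 points below every control point, while EZH2, SUZ12 and EED show the arrays labelled ERG above all others.

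With each member taken by its brightest probe set, EED, EZH2 and SUZ12 of the PRC2 core were highest relative to control in the arrays labelled ERG. UHRF1 was lowest on that choice of probe sets, as it was in ETV1 cells. RBBP4 lay lower when taken by its brightest probe set on control arrays or by the mean of its probe sets. These gave log2 fold changes of −0.49 and −0.94, against 0.05 for UHRF1. EED was 2.82 times, EZH2 2.27 times and SUZ12 1.85 times the control mean, DNMT1 1.35 times, and UHRF1 1.03 times. Of the 18 tested probe sets, 9 were higher, 6 lower and 3 did not pass, against 43.3% higher and 35.1% lower over all tested probe sets, so most genes differed and the share of members that did was close to the 78.4% of the whole array. On 8 of the 18 all labelled-ERG arrays lay above all control arrays and on 6 below, against 42.9% and 34%. The member split was 12 higher and 4 lower with median centring, 7 and 7 after quantile normalisation, and 5 and 7 with equal mean intensity. The median was 0.35, against 0.17 over all tested probe sets. These values use the same control arrays as the ETV1 comparison. Scaling moved both medians. With each array centred on its median, the 18 member probe sets had a median of 0.76, against 0.58 over all tested probe sets. After quantile normalisation these were −0.12 and 0.05, so the members then lay below the rest. With arrays scaled to the same mean intensity they were −0.06 and −0.22. A direction below therefore stands beside the settings under which its call was lost or its sign turned.

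With each member taken by its brightest probe set, EED had the largest rise (log2 fold change 1.50, SE 0.16, adjusted p = 3.8e-07, range 0.96 to 1.91), followed by EZH2 (1.14, SE 0.15, adjusted p = 4.0e-06, range 0.72 to 1.54) and SUZ12 (0.88, SE 0.16, adjusted p = 7.7e-05, range 0.28 to 1.29). These 3 passed in every alternative, none of which scaled arrays by the cre control, and on each the arrays labelled ERG lay above every control array. EZH1 probe sets disagreed: 32259_at, 203249_at and 239197_s_at rose by 0.61, 1.13 and 1.04 on the log2 scale, while 239198_at fell by 0.57, reading 68.3, 59.1 and 58.5 on arrays labelled ERG, 84.7 to 104 on ETV1 arrays and 95.2, 99.4 and 105 on control arrays. The fall of 239198_at did not pass after quantile normalisation or with median centring (−0.16 and −0.17, adjusted p = 0.22 and 0.27), and the rise of 32259_at did not pass with equal mean intensity (0.20, adjusted p = 0.14). JARID2 203298_s_at gave 0.52 (adjusted p = 0.0097) and 203297_s_at gave 0.28 (adjusted p = 0.18), and the first lost the threshold without control array C (0.38, adjusted p = 0.052) and with equal mean intensity (0.11, adjusted p = 0.48).

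RBBP7 gave a log2 fold change of 0.53 (SE 0.14, adjusted p = 0.0027) and DNMT1 of 0.43 (SE 0.16, adjusted p = 0.021) in arrays labelled ERG, but quantile normalisation turned both, to −0.077 and −0.20, neither passed with equal mean intensity (0.11 and 0.0061), and the DNMT1 arrays of the 2 groups overlapped. Without labelled-ERG array C or control array C, DNMT1 gave 0.30 and did not pass. UHRF1 gave 0.05 (95% confidence interval −0.32 to 0.42, adjusted p = 0.81), and both its sign and its call changed with the scaling. It passed as lower after quantile normalisation (−0.52, adjusted p = 0.015) and with equal mean intensity (−0.38, adjusted p = 0.042). In 1 alternative it passed as higher.

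The RBBP4 probe sets parted company. The brightest, 210371_s_at, gave 0.22 (adjusted p = 0.18), and the other 5 all fell: 217301_x_at by 0.49, 237333_at by 1.52, 239071_at by 1.12, 225396_at by 1.36 and 244872_at by 1.35 on the log2 scale. The brightest turned to −0.36 after quantile normalisation (adjusted p = 0.011) and to −0.20 with equal mean intensity (adjusted p = 0.14), and 217301_x_at did not pass with median centring (−0.085, adjusted p = 0.58). Probe set 225396_at, for example, read 169, 128 and 206 on arrays labelled ERG, 255, 230, 264 and 253 on ETV1 arrays, and 504, 463 and 381 on control arrays, so the ETV1 and the labelled-ERG arrays all lay below every control array. Probe set 237333_at read 217, 141 and 278 on arrays labelled ERG, 407, 469, 403 and 524 on ETV1 arrays, and 534, 613 and 724 on control arrays. Taking RBBP4 by its brightest probe set on control arrays, 217301_x_at, or by the mean of its probe sets, gave −0.49 and −0.94 in place of 0.22, so no single direction is given for RBBP4 in these arrays. Where each probe set lies on the transcript was not analysed here.

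**Figure D2:**
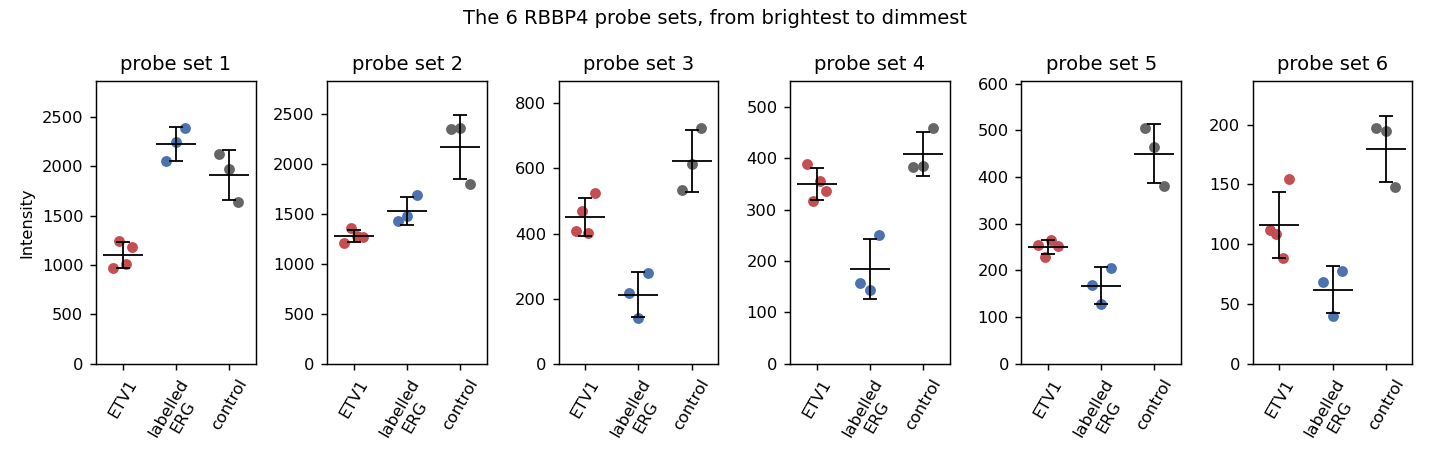
Intensity (vertical axes, linear, from 0, a different scale in each panel) of the 6 RBBP4 probe sets on every array, brightest at left, with mean ± SD of 4 ETV1, 3 labelled-ERG and 3 control arrays. The arrays labelled ERG lie above ETV1 in the first 2 panels and below it in the other 4.

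**Figure D3:**
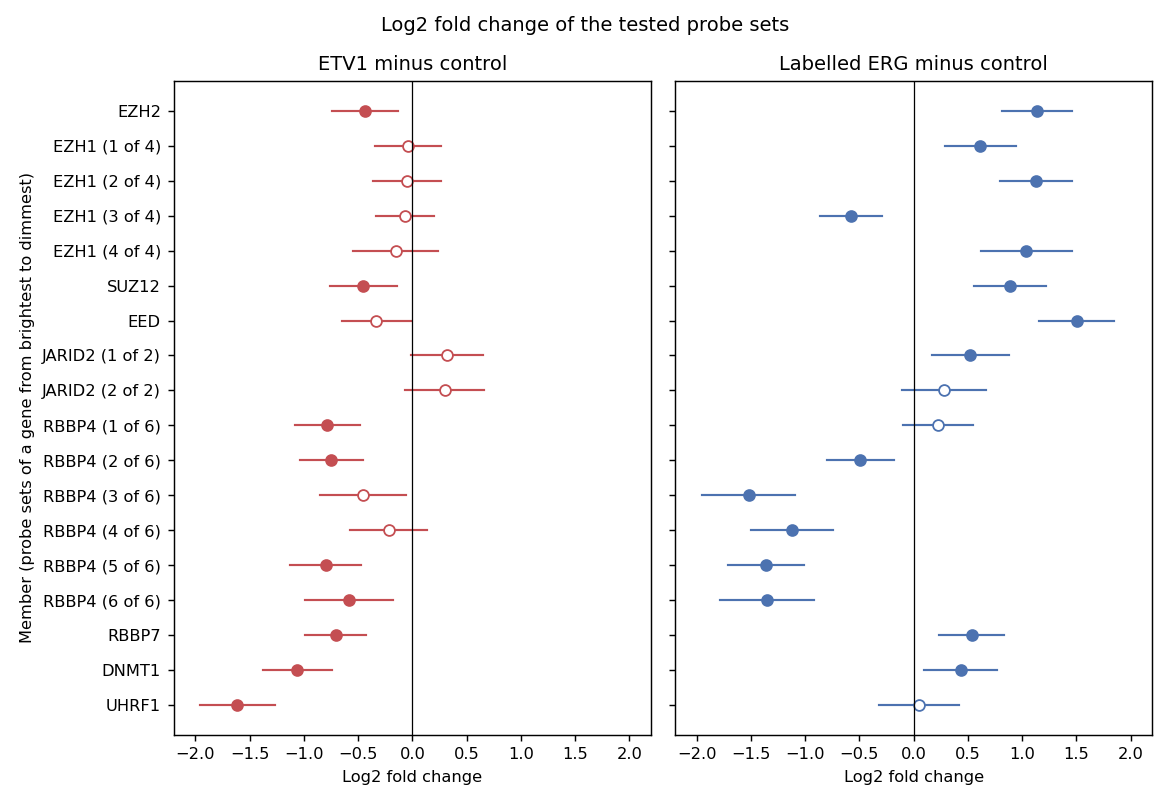
Log2 fold change against control (horizontal axes) of the 18 tested member probe sets in ETV1 cells (left) and in arrays labelled ERG (right), with 95% confidence intervals. Filled points passed limma's test at adjusted p under 0.05 and open points did not, and the left panel has 9 filled points, all negative.

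Set directly against ETV1, the arrays labelled ERG were higher for 10 of the 18 probe sets and lower for 5, against 45.6% and 36.5% of all tested probe sets (82.2% in either direction), with a median log2 difference of 0.83 against 0.20. The split was 13 and 2 with median centring and 9 and 7 with equal mean intensity. The largest differences were those of EED (1.83, SE 0.15, adjusted p = 1.3e-08), UHRF1 (1.66, SE 0.16, adjusted p = 8.7e-08), EZH2 (1.57, SE 0.14, adjusted p = 3.3e-08), DNMT1 (1.49), SUZ12 (1.33) and RBBP7 (1.24). All 6 passed in every alternative, none of which scaled arrays by the cre control. Labelled-ERG arrays lay above every ETV1 array on 11 of the 18 probe sets, these 6 included, and below every ETV1 array on 5, against 44.9% and 35.3% of all tested probe sets. JARID2 gave 0.20 and −0.02 and did not pass (95% confidence intervals −0.13 to 0.54 and −0.39 to 0.34). The 4 RBBP4 probe sets that were lower were 237333_at, 239071_at, 225396_at and 244872_at, at −1.07, −0.90, −0.56 and −0.77, and EZH1 239198_at made the fifth at −0.50. Of these 5, 237333_at and 239071_at passed in every alternative. Median centring left 225396_at short of the threshold (−0.13, adjusted p = 0.41), and it and quantile normalisation left 244872_at (−0.34 and −0.37) and 239198_at (−0.074 and −0.061) short.

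Because several members are read as S-phase genes, each array's log2 values were also set against the mean of 22 cell cycle genes on the same array, a comparison added after the data had been seen. Within an array such a ratio shows unequal change only. In ETV1 cells the cell cycle genes themselves were lower, 17 of 22 passing downwards and 0 upwards, with CCNE2 at −2.39 and RRM2 at −2.18. Relative to them, UHRF1 was still lower (−0.61, SE 0.13, adjusted p = 5.9e-04), and DNMT1 moved with them (−0.05, SE 0.11, adjusted p = 0.64). RBBP7 was slightly higher (0.30, adjusted p = 0.012), RBBP4 by its brightest probe set gave 0.22 (adjusted p = 0.062), and EZH2 (0.57), SUZ12 (0.56), EED (0.68), EZH1 (0.97) and JARID2 (1.33) were higher, with adjusted p between 2.2e-06 and 6.8e-04. These last 5 and UHRF1 kept their direction and passed in all 14 alternatives. Because the list fell, the ratio raised the ETV1 log2 fold change of every gene on the array by the same amount. Before it was taken, EZH1 (−0.04) lay near the median of −0.03 over all tested probe sets. EZH2 (−0.44), SUZ12 (−0.45) and EED (−0.33) lay below that median, and JARID2 (0.32) above it. The share of all tested probe sets that passed this ratio was not counted, so a higher ratio does not single out these members. Against control, the ratio in arrays labelled ERG was higher for EED (1.22), EZH2 (0.86) and SUZ12 (0.60), which passed in all 14 alternatives, and for EZH1 (0.33) and RBBP7 (0.25), which lost the threshold in 4 and 9 of them. JARID2 (0.24), RBBP4 (−0.06), DNMT1 (0.15) and UHRF1 (−0.23) did not pass.

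**Figure D4:**
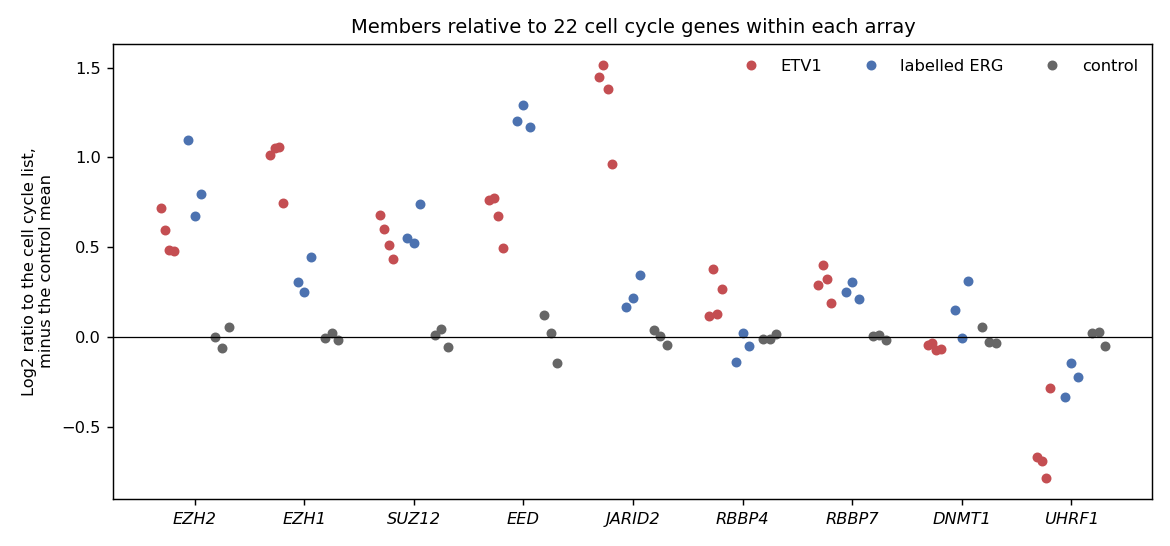
Log2 ratio of each member's brightest tested probe set to the mean of 22 cell cycle genes on the same array, shown relative to the control mean (vertical axis); points are the 4 ETV1, 3 labelled-ERG and 3 control arrays. The ETV1 points lie above control for EZH2, EZH1, SUZ12, EED and JARID2, beside it for DNMT1 and below it for UHRF1.

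The surrounding pathway genes, 1 probe set a gene, were read from the same fit, in which 8.83% of 14116 genes were higher and 15.2% lower in ETV1 cells (median −0.06), and 47.9% higher and 32.1% lower in arrays labelled ERG (median 0.31). Among PRC2 accessory subunits and inhibitors, 0 of 7 rose and 2 fell in ETV1 cells, AEBP2 (−0.55) and EPOP (−0.49), with a list median of −0.32. The count was 0 without control array A or B or with the replicate block, 1 without any 1 ETV1 array or labelled-ERG array A, and 4 without control array C or after quantile normalisation. MTF2 and PHF19, which link PRC2 to its sites, gave −0.31 and −0.32 and did not pass. Of the 7, 5 rose in arrays labelled ERG, EPOP by 1.63, AEBP2 by 1.12 and PHF19 by 0.60 among them, and LCORL fell by 1.61 (median 0.60). After quantile normalisation or scaling to the same mean these counts were 2 higher and 1 lower. Of 16 PRC1 subunits, members of the complex that ubiquitinates histone H2A, 0 rose and 4 fell in ETV1 cells, PCGF6 (−0.83) and PCGF5 (−0.76) the most (median −0.22). The count was 2 without ETV1 array A, C or D, without control array A or B or with the replicate block, and quantile normalisation gave 2 higher and 5 lower. There were 6 higher and 5 lower in arrays labelled ERG, CBX6 (0.72) and PCGF5 (0.69) up and PCGF1 (−1.62) and PCGF3 (−1.44) down (median 0.04), but scaling to the same mean left 0 higher and 9 lower, quantile normalisation 1 and 7, and median centring 9 and 3. BMI1 and RNF2 had no tested probe set of their own. Of 5 genes of enzymes and cofactors that remove the Polycomb marks, 0 rose and 2 fell in ETV1 cells, ASXL1 (−0.55) and ASXL2 (−0.52) (median −0.35). The count was 0 without control array A or B, and 1 without any 1 ETV1 array, without labelled-ERG array A, with the replicate block or with equal mean intensity. For arrays labelled ERG 1 rose and 4 fell (median −1.67), 1 of the 4 being a Y-linked gene that is not described here, with the demethylases KDM6A at 0.52 and KDM6B at −1.78; with equal mean intensity 0 rose and 4 fell. KDM6B gave 0.06 in ETV1 cells and did not pass.

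On the DNA methylation side, the list of de novo methyltransferases and demethylation enzymes had 0 of 7 higher and 4 lower in ETV1 cells (median −0.63), and 2 lower without control array A. DNMT3B, a de novo methyltransferase, read 29.7, 38.5, 35.1 and 40.7 on ETV1 arrays, 228, 262 and 337 on arrays labelled ERG, and 77.2, 82.0 and 87.9 on control arrays. It fell by 0.92 in ETV1 cells and rose by 1.55 in arrays labelled ERG, with no overlap. TET3, an enzyme that oxidises methylcytosine, fell by 1.09 in ETV1 cells, and DNMT3A gave −0.09 and did not pass. Of the 7, 4 rose in arrays labelled ERG, TDG (0.91) among them, and TET1 (−0.97) and DNMT3A (−0.76) fell (median 0.70). Of 15 partners of maintenance methylation, 0 rose and 7 fell in ETV1 cells (median −0.43): HELLS, the remodeller that opens chromatin for methylation, gave −1.71, HDAC1 −0.96 and PCNA, the sliding clamp that binds DNMT1 at the fork, −0.88. For arrays labelled ERG 4 rose and 6 fell (median −0.30), with HDAC2 at 1.22 and SUV39H2 at 1.19, and CBX5 at −2.24 and TRIM28 at −1.81. HELLS gave −0.14 in these arrays and did not pass. With equal mean intensity 2 of the list rose and 10 fell, after quantile normalisation 2 and 8, and with median centring 5 and 2.

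The complexes that share RBBP4 and RBBP7 with PRC2 (CAF-1, HAT1, NuRD, SIN3, NURF and DREAM) had 0 of 23 genes higher and 12 lower in ETV1 cells (median −0.40; 7 lower without control array B), with the CAF-1 subunit CHAF1A at −1.10 and the histone acetyltransferase HAT1 at −0.96. Against control, 12 rose and 5 fell in arrays labelled ERG (median 0.52), with SAP30 at 2.38 and MBD2 at 1.65, and SIN3B at −2.45 and GATAD2B at −2.08; the split was 10 and 8 after quantile normalisation, 11 and 7 with equal mean intensity and 15 and 3 with median centring. Of 13 E2F factors, partners and pocket proteins, 0 rose and 6 fell in ETV1 cells (median −0.39), with RBL1 at −0.80, E2F1 at −0.73 and E2F8 at −0.64. E2F factors moved both ways in arrays labelled ERG, 8 of the 13 genes higher and 3 lower (median 0.89), with E2F5 at 2.63, E2F7 at 1.60 and E2F8 at 0.95, and E2F4 at −2.64 and E2F1 at −2.29. The cell cycle list had a median of −0.91 in ETV1 cells, with MKI67, the proliferation marker, at −0.86. Of the 22 genes, 10 rose and 4 fell in arrays labelled ERG (median 0.20), with CDK1 at 2.48, CCNA2 at 1.55 and MKI67 at 0.69, and MCM2 at −1.34 and CCNE2 at −1.03. Quantile normalisation turned the balance of this list to 6 higher and 9 lower, equal mean intensity to 4 and 9, and median centring to 17 and 3.

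The genes whose profiles were most like those of EZH2 and UHRF1 were sought over the 7 ETV1 and control arrays, among 14106 genes by Pearson correlation of log2 values. The 5 nearest to EZH2 were SCML1 (0.997), NDUFAF6 (0.995), H2BC5 (0.995), VARS1 (0.995) and KLF5 (0.995), where the 95th percentile over all genes was 0.955. The 5 nearest to UHRF1 were PCNA (0.999), MCM4 (0.999), FAM217B (0.999), COX6B1 (0.998) and MRNIP (0.997), where the 95th percentile was 0.946. PCNA read 2986, 3095, 2953 and 3751 on ETV1 arrays and 6290, 6041 and 5367 on control arrays, with array D highest among ETV1 and array C lowest among control, as for UHRF1. The 7 arrays share a group difference and their overall brightness, so these values describe likeness on these arrays only.

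The other 5 member probe sets did not pass the filter and were not tested. EZH1 211310_at read 15.2 to 58.9 over all arrays, and EED 210656_at 9.45 to 19.3. SUZ12 1566191_at read 7.22 to 82.0 and 1566190_at 1 to 28.8, and JARID2 240674_at 29.3 to 51.0. A further probe set, 213971_s_at, is annotated to both SUZ12 and its pseudogene SUZ12P1 and so is no member. It read 296, 411, 384 and 345 on ETV1 arrays, 783, 645 and 520 on arrays labelled ERG, and 525, 485 and 358 on control arrays, with the ETV1 and control arrays overlapping.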

How the data were processed

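The authors deposited 1 table of linear probe set intensities for 10 arrays (4 ETV1, 3 labelled ERG, 3 control), hybridised as biotinylated cRNA per the labels' protocols; the labels do not state how probes were summarised and scaled. The members and lists were chosen with earlier results of these data known. Of 54675 probe sets, 41091 named 1 gene, 1801 several, 11721 none and 62 were controls; 54 single-gene probe sets had no match in RefSeq and kept their symbol.

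Probe sets above the array median on at least 3 arrays (25975, of 14116 genes) were fitted on log2(intensity + 16) in 1 model of 3 groups with limma 3.58.1 in R 4.3.3 (lmFit, eBayes, 7 residual degrees of freedom, two-sided), and p-values were adjusted over all of them at 0.05. A gene in a list was its brightest tested probe set. Promoters were searched in Python 3.11.15. On simulated data with 200 changed probe sets among 25975, changes of 1 log2 unit were recovered in 71% of cases for ETV1 versus control, 73% for ERG versus control and 83% for ERG versus ETV1, and changes of 0.5 in 19%, 13% and 12%. In the data 6102, 20364 and 21340 probe sets passed in these comparisons. With so few changed, the adjustment was stricter in the simulation, so its shares do not give the power here. Named list genes were at most the 2 largest passing rises and falls without overlap, plus E2F1, MKI67, PCNA, DNMT3A, DNMT3B, MTF2, PHF19, BMI1, RNF2, HELLS, KDM6B and E2F8. Replicate letters did not pair arrays: same-letter correlations of deviations from group means were −0.099 to 0.087. Alternatives changed the scaling, filter, pseudocount, moderation, weights, arrays and block.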

Additional observations from a re-analysis of the deposited data

How the results depend on the processing

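Lower UHRF1, DNMT1, RBBP7 and RBBP4 (210371_s_at, 217301_x_at, 225396_at) in ETV1 cells passed in every alternative in which they could be fitted. The letters of the arrays do not pair them (correlations in the account of the processing). With the letter as a replicate block, 5244 probe sets passed for ETV1 versus control (7 of them members), 20143 for ERG versus control (15) and 20672 for ERG versus ETV1 (15). When probe sets whose IDs mark a match to several transcripts were left out, fewer were tested, and 3254, 12296 and 12837 passed in the 3 comparisons, with 5 member probe sets for ETV1 and 9 for ERG against control. The 75th percentile filter left 11159 for ERG versus control and 11854 for ERG versus ETV1. Array weights, whose estimation stopped before it converged, gave 17536 for ETV1 versus control. Among passing probe sets 55.2% were higher in arrays labelled ERG than in control as reported, 68.2% with median centring and 39.3% with equal mean intensity; against ETV1 these were 55.5%, 67.4% and 39.1%. For ETV1 versus control they were 44.1% as reported and 55.8% with equal means.

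Signs turned as follows; beyond the scaling itself the cause was not tested. Quantile normalisation gave, for ERG versus control, RBBP7 −0.077, DNMT1 −0.20, RBBP4 210371_s_at −0.36 and UHRF1 −0.52, and for ERG versus ETV1, JARID2 203298_s_at −0.057 and RBBP4 217301_x_at −0.42; the DNMT1 ratio to the cell cycle list became 0.094 in ETV1 and −0.048 in ERG. Equal means gave, for ERG versus control, JARID2 203297_s_at −0.13, RBBP4 210371_s_at −0.20 and UHRF1 −0.38, for ERG versus ETV1, JARID2 203298_s_at −0.29 and RBBP4 217301_x_at −0.25, and for ETV1 versus control, EZH1 203249_at 0.028 and 32259_at 0.037. Median centring gave JARID2 203297_s_at 0.41 for ERG versus ETV1. Array weights gave JARID2 203297_s_at −0.027 and UHRF1 −0.15 for ERG versus control, and the block gave EZH1 32259_at 0.011 for ETV1. RBBP4 as a gene gave −0.49 (brightest on control) and −0.94 (mean of probe sets) for ERG versus control, and −0.34 (mean) for ERG versus ETV1. Leaving out 1 array at a time moved JARID2 203297_s_at for ERG versus ETV1 between −0.24 and 0.095, EZH1 32259_at for ETV1 between −0.16 and 0.044, and UHRF1 for ERG versus control between −0.093 and 0.14, none of them past the threshold as reported. No depth is known for arrays. Changes of 0.5 on the log2 scale were mostly missed in simulated data, but only 200 probe sets were changed there, so the share missed here is not known.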

Other observations

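Genes reported as repressed by EZH2 and genes silenced by promoter methylation in prostate cancer were read as 2 lists, 1 probe set a gene. Whether the members silence these genes in RWPE-1 cells was not tested. Among 14 tested genes reported as repressed by EZH2 in prostate cells, 4 rose and 1 fell in ETV1 cells (median 0.27, against −0.06 over all genes), and 2 rose and 7 fell in arrays labelled ERG (median −0.24, against 0.31). Over all genes 8.83% were higher and 15.2% lower in ETV1 cells, and 47.9% higher and 32.1% lower in arrays labelled ERG. SLIT2, an axon guidance ligand, read 179, 181, 179 and 98.1 on ETV1 arrays, 8.53, 7.92 and 8 on arrays labelled ERG, and 30.4, 40.4 and 34.9 on control arrays, a log2 fold change of 1.74 in ETV1 cells. TIMP3, an inhibitor of metalloproteases, rose by 1.11 in ETV1 cells, and PEBP1 fell by 0.74. The cell cycle inhibitors CDKN1C and CDKN2A rose by 1.87 and 1.16 in arrays labelled ERG, and KLF2 and RUNX3 fell by 1.79 and 1.15. With median centring the counts for arrays labelled ERG were 6 higher and 5 lower, and for ETV1 cells they were 7 and 1 with equal mean intensity and 6 and 1 after quantile normalisation.

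Among 11 tested genes silenced by promoter methylation in prostate cancer, 3 rose and 2 fell in ETV1 cells (median 0.09, against −0.06 over all genes). In arrays labelled ERG 2 rose and 6 fell (median −0.77, against 0.31). The shares over all genes were 8.83% higher and 15.2% lower in ETV1 cells, and 47.9% and 32.1% in arrays labelled ERG. SFRP1, a secreted WNT inhibitor, read 1940, 2176, 2029 and 2937 on ETV1 arrays, 166, 138 and 214 on arrays labelled ERG, and 412, 422 and 309 on control arrays, a log2 fold change of 2.52 in ETV1 cells with every ETV1 array above every other. PTGS2 rose by 1.53, and CCND2 and KLK10 fell by 0.55 and 0.52. PTGS2 and GSTP1 rose by 0.47 and 0.30 in arrays labelled ERG, while RARB and TNFRSF10C fell by 2.54 and 2.37. With equal mean intensity the counts for arrays labelled ERG were 0 higher and 7 lower in this list, and with median centring 5 and 6. Of 14 germline genes kept silent by DNA methylation, 1 passed the filter, SSX1, at −0.23 in ETV1 cells (not passing) and −2.29 in arrays labelled ERG.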
